A study of Mus musculus with 31 samples.

Results

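The genes described here are 10 factors and feedback inhibitors of NF-kappa B, the transcription factor family that drives much of the inflammatory programme of myeloid cells. They are Nfkb1, Nfkb2, Rel and Rela, which encode subunits of the factor, the inhibitor genes Nfkbia, Nfkbie and Nfkbiz, and the feedback genes Tnfaip3, Zfp36 and Ier3. Members were found by gene symbol, and each of the 10 symbols matched 1 Ensembl identifier among the 47069 genes of the deposited tables. Their levels were followed in 31 single cells from the right lung lobes of adult B6 Csf1r-GFP mice, which carry a green fluorescent reporter of the receptor gene Csf1r. The mice were 10 weeks old, and cells were taken 7 days after a sham thoracotomy, in which the chest was opened. Cells labelled as macrophages were sorted as CD45+, CSF1R-GFP+ and F4/80+, with Ly6G named in the sort label without a sign, and were captured on a Fluidigm C1 microfluidic chip. All 31 cells share this genotype, age, operation and time, and no cells of unoperated mice were analysed here. The labels name no animal, so the cells count as 1 sample, cells are not replicates, and no p-value is given.

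NF-kappa B proteins act as dimers of Rel family subunits. Nfkb1 and Nfkb2 encode the precursors p105 and p100, which are processed to p50 and p52, whereas Rela and Rel encode p65 and c-Rel, which carry the domains that activate transcription. In resting cells the dimers are held in the cytoplasm by inhibitors of kappa B, which are phosphorylated and degraded after signals from Toll-like receptors or the receptors for TNF and interleukin 1. Several inhibitors are themselves induced by NF-kappa B, and in macrophages this feedback shapes how long a response lasts.

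Promoter sequences were compared because several of these genes are known NF-kappa B targets, so kappa B motifs near their starts are not independent of how the genes were chosen. Of the 10 members, 8 matched a window in the RefSeq promoter table (build GRCm38.p6), which holds 250 bases before and 50 bases from each gene's start on. Nfkb1 and Nfkbiz had no entry. Nfkb2 had 3 windows and Tnfaip3 had 2, at different starts, and each other matched member had 1. A gene counted as holding a motif if any of its windows did. The windows were searched on both strands for the kappa B consensus motif of 10 bases, with overlapping matches joined. A match was found for 6 of the 8 members, namely Nfkb2, Rel, Nfkbia, Nfkbie, Tnfaip3 and Ier3, whereas 9.55% of the 27025 genes of the table held it. Nfkb2 and Tnfaip3 each had a window with 2 separate matches, which 0.521% of the 32851 windows held. Rela and Zfp36 held none in these windows. The AP-1 core motif TGANTCA was found for 3 of the 8 members, against 8.97% of genes. A match describes the letters and was not tested as a site of binding. The windows of Nfkbia (chr12:55492598-55492897, minus strand), Tnfaip3 (chr10:19015361-19015660, minus strand), Nfkb2 (chr19:46304487-46304786, plus strand), Rel (chr11:23770920-23771219, minus strand) and Rela (chr19:5637291-5637590, plus strand) are shown 5′ to 3′, since the first 4 hold the motif and Rela does not. Capitals mark the kappa B matches.
Nfkbia: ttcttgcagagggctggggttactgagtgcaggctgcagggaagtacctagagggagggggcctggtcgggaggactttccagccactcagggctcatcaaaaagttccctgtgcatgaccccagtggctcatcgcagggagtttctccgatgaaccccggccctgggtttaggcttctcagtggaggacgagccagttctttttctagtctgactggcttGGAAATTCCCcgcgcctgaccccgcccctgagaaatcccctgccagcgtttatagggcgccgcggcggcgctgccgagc
Tnfaip3: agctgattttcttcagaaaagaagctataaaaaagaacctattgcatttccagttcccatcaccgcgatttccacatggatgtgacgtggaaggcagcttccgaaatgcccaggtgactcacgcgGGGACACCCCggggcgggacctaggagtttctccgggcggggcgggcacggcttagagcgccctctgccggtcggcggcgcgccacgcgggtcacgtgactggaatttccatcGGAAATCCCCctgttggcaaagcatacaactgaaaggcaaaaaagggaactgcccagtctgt
Nfkb2: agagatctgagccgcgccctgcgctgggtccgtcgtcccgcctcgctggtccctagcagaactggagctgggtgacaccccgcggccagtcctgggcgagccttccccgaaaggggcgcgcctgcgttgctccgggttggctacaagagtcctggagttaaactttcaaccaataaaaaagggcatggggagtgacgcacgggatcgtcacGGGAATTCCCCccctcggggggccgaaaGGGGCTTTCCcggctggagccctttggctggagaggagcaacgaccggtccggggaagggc
Rel: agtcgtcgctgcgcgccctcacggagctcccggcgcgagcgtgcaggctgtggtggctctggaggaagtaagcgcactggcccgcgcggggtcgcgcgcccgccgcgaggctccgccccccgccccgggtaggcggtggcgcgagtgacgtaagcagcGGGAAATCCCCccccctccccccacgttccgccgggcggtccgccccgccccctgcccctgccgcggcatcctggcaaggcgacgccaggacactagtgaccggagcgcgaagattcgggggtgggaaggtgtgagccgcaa
Rela: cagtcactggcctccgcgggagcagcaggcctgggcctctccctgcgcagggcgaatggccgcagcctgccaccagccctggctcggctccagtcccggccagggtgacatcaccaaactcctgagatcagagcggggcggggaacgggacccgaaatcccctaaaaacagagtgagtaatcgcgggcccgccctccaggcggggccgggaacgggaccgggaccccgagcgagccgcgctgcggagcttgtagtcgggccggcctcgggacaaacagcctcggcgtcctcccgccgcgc
In Nfkbia the match GGAAATTCCC lay 29 to 20 bases before the start of the gene. In the Nfkb2 window shown, GGGAATTCCCC and GGGGCTTTCC lay 39 to 29 and 11 to 2 bases before the start it was built on. In Rel GGGAAATCCCC lay 92 to 82 bases before the start. The second Nfkb2 window held GGAATGTCCC and GGGACTTTCC, and the third, which overlaps it, held GGGACTTTCC. The second Tnfaip3 window held no match. Nfkbie held GGGGGATTCC and Ier3 held GGAGTTCCCC.

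The cells were described in all 31 and within the 20 that held at least 1000 FPKM of the lysozyme gene Lyz2, called Lyz2-high. FPKM is the number of fragments scaled to transcript length and to library depth, so levels can be compared between genes. A gene is called present at 1 FPKM or more. A value of 0 means that no reads were assigned, and whether such a cell lacked the transcript was not tested. The Lyz2-high cells had 521492 to 4059833 expected counts (median 1591648), with 87.4 to 95.6% of them on nuclear protein-coding genes. The other 11 cells had 120835 to 1592301 expected counts (median 413337), and 10 of these 11 had under 80% of counts on such genes. The eleventh, F11, had 87.9% but 0 FPKM of Lyz2. In the Lyz2-high cells Csf1r was present in 20 of 20, Ptprc (CD45) in 19, Adgre1 (F4/80) in 15 and Ly6g in 7. Pan-myeloid Tyrobp and Fcer1g were each present in all 20. All 7 alveolar macrophage markers and all 4 NK cell markers of the lists used were in no cell, and T cell and epithelial markers were in no Lyz2-high cell. Of the B cell list Cd79b (97.5 FPKM) and Ms4a1 (54.6 FPKM) were each in 1 Lyz2-high cell. Of the dendritic cell list Flt3 and Xcr1 were each in 1. Endothelial Pecam1 was in 2 and fibroblast Col1a1 in 1, and the other genes of these lists were in no Lyz2-high cell. Neutrophil S100a8 was in 3 Lyz2-high cells, Ngp was in 1, and S100a9, Retnlg, Ltf, Lcn2 and Camp were in none.

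Of the 20 Lyz2-high cells 16 held at least 6 of the 10 genes. A Lyz2-high cell held a median of 7 of the 10 (range 3 to 10), and over all 31 cells the median was 6 (range 0 to 10). In the Lyz2-high cells 9 of the 10 members were present in at least 10 of 20 cells, against 13.2% of the 10818 genes present in any of them. In all 31 cells 6 of 10 members were present in at least 16 cells, against 7.74% of 15431 genes. The members were chosen with earlier results of these data known, so these contrasts are descriptions only. B9 was the 1 cell with all 10 members, C11, E12, E7, F10 and D6 held 9 each, and H5 held 3. Of the 143 times that a member was present in a Lyz2-high cell, 140 rested on at least 10 expected counts. The number of members per Lyz2-high cell did not rise with depth (Spearman rho -0.24 with total counts, n = 20 cells of 1 sample), and thinning every cell to 120829 counts left a median of 7.

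**Figure D1:**
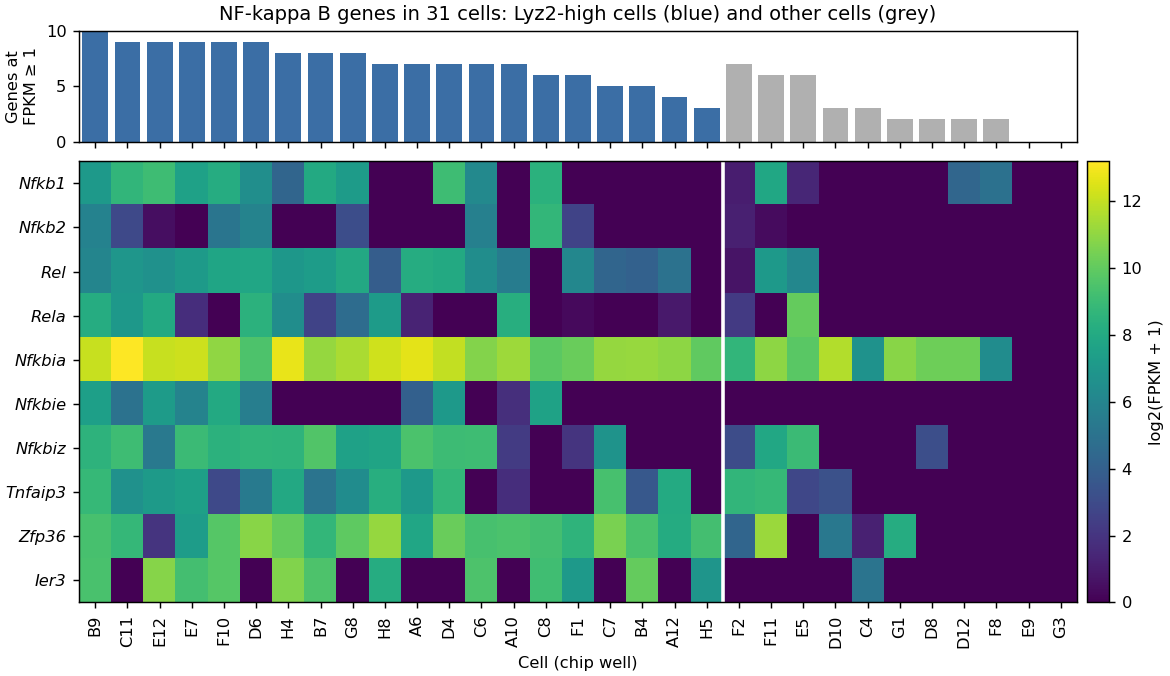
Levels of the 10 genes (rows, log2(FPKM + 1)) in each of the 31 cells (columns), with the number of genes at 1 FPKM or more as bars above; blue bars and the left block are the 20 Lyz2-high cells. The Nfkbia row is filled in all 20 Lyz2-high cells, as is the Zfp36 row with a low value in E12, while each of the other 8 rows holds both present cells and cells at or near 0.

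The Rel family genes were present in different sets of cells. Rel, which encodes c-Rel, was found most widely, in 18 of 20 Lyz2-high cells (exact Clopper-Pearson 95% interval of the share 68.3 to 98.8%). Its level there ran from 0 to 286 FPKM with a median of 94.7, and the 2 cells without it were C8 and H5. Nfkb1 was present in 12 of 20 (36.1 to 80.9%), at a median of 82.3 FPKM and up to 556 FPKM in E12. Its values left a gap, since 8 cells were at 0 and the lowest cell with it had 18.8 FPKM. Rela was present in 11 of 20 (31.5 to 76.9%), with a median of 1.87 FPKM over the 20. In 7 of those 11 cells Rela was at 50 FPKM or more, the highest being D6 at 356 FPKM, and in 4 it was between 1 and 50 FPKM. Nfkb2 was the member found least, in 8 of 20 (19.1 to 63.9%), with 430 FPKM in C8 and at most 59.5 FPKM in every other cell.

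The fifth Rel family gene, Relb, which encodes the partner of p52, was present in 8 of 20 Lyz2-high cells at up to 208 FPKM. All 4 member subunit genes were present together in 4 of the 20 cells, and H5 was the 1 cell with none of them. Nfkb1 and Rela, whose products form the p50 and p65 dimer, were present together in 8 cells against 6.6 if their presence were independent. All 8 were among the 14 Lyz2-high cells without the complement gene C1qb, where independence gives 7.86. Every cell with Rela also held Rel, 11 cells against 9.9. Reads carry no strand, and both Nfkb genes overlap others in GENCODE M21. Nfkb2 (ENSMUSG00000025225, chromosome 19, 46304320 to 46312385, plus strand, 22 exons) overlaps Psd on the opposite strand, which was present in 3 cells that also held Nfkb2. Nfkb1 (ENSMUSG00000028163, chromosome 3, 135584655 to 135691547, minus strand, 25 exons) overlaps the transcript Gm43430 on the same strand, present in 4 cells with Nfkb1. Reads of these overlaps cannot be told apart. Nfkb2 also overlaps AC114539.1 and Zfp36 overlaps Gm44710, both on the opposite strand and with no row in the tables.

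Among the inhibitors, Nfkbia was at high level in every Lyz2-high cell and the others were present in some. Nfkbia (ENSMUSG00000021025, chromosome 12, 55489410 to 55492647, minus strand, 6 exons) encodes IkappaB alpha, the inhibitor that is degraded on stimulation and made again as an NF-kappa B target. It was present in 20 of 20 Lyz2-high cells (83.2 to 100%), from 721 FPKM in D6 to 9382 FPKM in C11 with a median of 2368 FPKM. It had the highest level of the 10 members in 19 of the 20 cells and made up 59.1% of their summed FPKM in the median cell. Zfp36 was the highest member in D6, where Nfkbia held 19.2% of the sum. In the other 11 cells Nfkbia was present in 9, at 83.7 to 3299 FPKM, so the ranges of both sets overlapped.

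Nfkbiz encodes IkappaB zeta, a nuclear protein that binds p50 and is needed for a later set of inflammatory genes. It was present in 16 of 20 Lyz2-high cells (56.3 to 94.3%), at a median of 283 FPKM and up to 769 FPKM in B7. Nfkbiz fell into high and low cells, with 13 cells at 50 FPKM or more, 3 cells between 1 and 50 FPKM and 4 cells at 0. Nfkbie encodes IkappaB epsilon, which holds mainly c-Rel and p65 dimers. It was present in 10 of 20 Lyz2-high cells (27.2 to 72.8%) at up to 261 FPKM in F10, and in 0 of the other 11, which allows a share of up to 27.3% there. All 3 inhibitors were present together in 9 of the 20 cells. Every cell with Nfkbiz held Rel (16 cells against 14.4 if independent).

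The other feedback genes differed in how evenly they were found. Zfp36 (ENSMUSG00000044786, chromosome 7, 28376784 to 28380253, minus strand, 2 exons) encodes tristetraprolin, which binds AU-rich elements in mRNAs such as that of TNF and speeds their decay. It was present in 20 of 20 Lyz2-high cells, at a median of 652 FPKM and up to 2246 FPKM in H8. In 19 of them it was at 157 FPKM or more, and E12 stood apart at 2.99 FPKM. The highest value of all cells, 2413 FPKM, was in F11, which lies outside the Lyz2-high set. Tnfaip3 encodes A20, a ubiquitin-editing enzyme that ends signalling upstream of the inhibitor kinases. It was present in 16 of 20 Lyz2-high cells (56.3 to 94.3%), at a median of 94.4 FPKM and up to 655 FPKM in C7.

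Ier3, an immediate early gene whose product affects cell survival, was either at high level or at 0 FPKM in the Lyz2-high cells. It was present in 12 of 20 Lyz2-high cells (36.1 to 80.9%), every time at 116 to 1808 FPKM, and was at 0 in the other 8. The transcript is short (1131 bases, 2 exons; ENSMUSG00000003541, chromosome 17, 35821684 to 35822923, plus strand). Of the 11 other cells Ier3 was present in C4 at 32.9 FPKM. Tnfaip3, Zfp36 and Ier3 were present together in 8 of the 20 cells.

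Zfp36 protein recognises AU-rich elements, so the members' own 3′ UTRs were searched for the heptamer TATTTAT, written as DNA on the sense strand, in the longest 3′ UTR of each gene in GENCODE M21. At least 2 copies were found in 5 of the 10 members (Rel, Nfkbia, Tnfaip3, Zfp36 and Ier3), against 10.3% of 20996 genes, and 27.5% of genes held at least 1. Ier3 held 4 copies in 613 bases and Zfp36 held 3 in 774 bases, where the median 3′ UTR of all genes had 954 bases. Rel held 2 in 5418 bases. Windows of 25 bases are shown with the heptamer in capitals, to set the densest stretch of Ier3 beside those of Zfp36 and Nfkbia.
Ier3: tctaattaaTATTTATgTATTTATg
Zfp36: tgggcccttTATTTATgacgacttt
Nfkbia: accacgtttTATTTATtgtgctttt
Binding or decay was not measured, and no link between these letters and the levels was tested.

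By median FPKM in the Lyz2-high cells the order was Nfkbia (2368), Zfp36 (652), Nfkbiz (283), Ier3 (209), Rel (94.7), Tnfaip3 (94.4), Nfkb1 (82.3), Rela (1.87), Nfkbie (1.24) and Nfkb2 (0). Nfkbia exceeded Zfp36 in 19 of 20 cells, and the middle 50% of cells did not overlap between these genes (1937 to 4475 FPKM and 418 to 1005 FPKM). For every later pair of neighbours in this order the middle 50% of cells overlapped. The medians of Rel and Tnfaip3 were nearly equal, with Rel above Tnfaip3 in 10 of 20 cells.

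**Figure D2:**
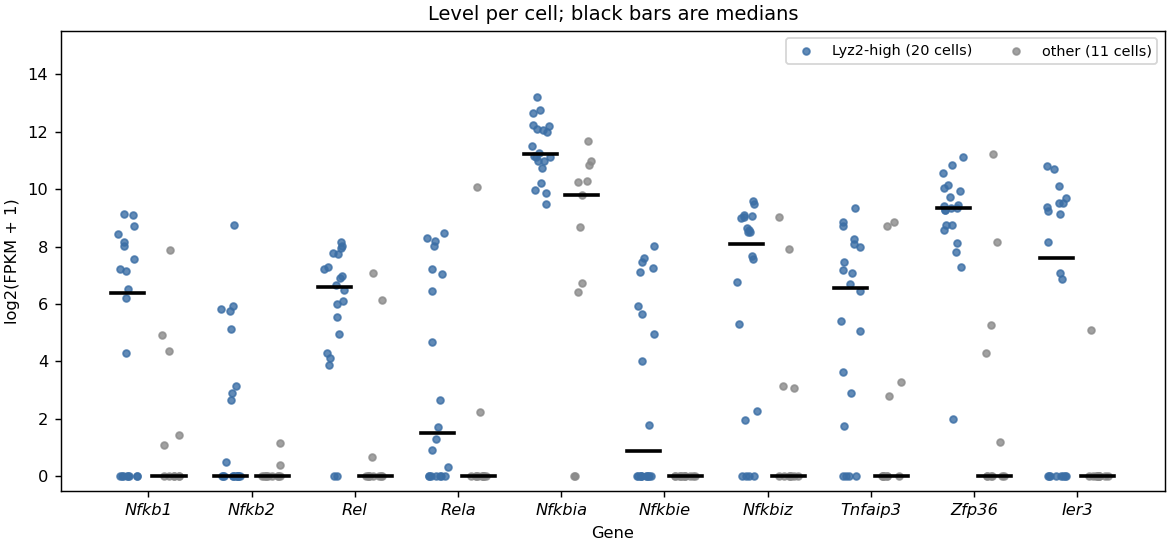
Level of each gene in each cell (points, log2(FPKM + 1)) for the 20 Lyz2-high cells and the 11 other cells, with medians as black bars. Nfkbia has the highest median in Lyz2-high cells, and the values of Zfp36 overlap those of Nfkbiz and Ier3. In the Lyz2-high cells Ier3, Nfkb1 and Rel show a gap between 0 and their lowest present cell.

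All 10 members were present in a larger share of Lyz2-high cells than of the other 11, where 47.5% of all genes had a larger share. This contrast too is a description only, since earlier results of these data were known when the members were chosen. The other 11 cells held a median of 2 members (range 0 to 7), and E9 and G3 held none. Depth and the protein-coding share move with this split, as given above, and their part in it was not tested. F11, the 1 deep library with a high coding share among the 11, held 6 members, with Nfkbia at 2010 FPKM, Tnfaip3 at 462 FPKM, Nfkbiz at 243 FPKM and Nfkb1 at 234 FPKM. In the 21 libraries with at least 80% coding counts, F11 included, the median was 7 members.

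Many pairs of members were present together slightly more often than their separate shares give. Nfkbia and Zfp36 were in every Lyz2-high cell and can show no co-detection, which leaves 28 pairs among the other 8 members. Of these, 19 pairs (67.9%) were found together in more cells than independence gives, against 49.9% of all gene pairs present in at least 3 and not all of these cells. The largest excesses were Nfkb1 with Nfkb2 (7 cells against 4.8), Rela with Nfkbiz and Rela with Tnfaip3 (11 against 8.8 each) and Nfkb1 with Nfkbie (8 against 6). Tnfaip3 was found with Ier3 in 8 cells against 9.6 and with Nfkb2 in 5 against 6.4. In the 14 Lyz2-high cells without the complement gene C1qb, 13 of 28 pairs (46.4%) were above independence, against 50.2% of all gene pairs. Without the 6 cells with C1qb, the share of pairs above independence was thus near that of all gene pairs. In those 14 cells Nfkb1 was with Nfkb2 in 6 cells against 4.71 and with Nfkbie in 8 against 7.86. Rela was with Nfkbiz in 10 against 8.57 and with Tnfaip3 in 10 against 9.29.

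Levels rose and fell together for some of the members. Over the 45 member pairs the median Pearson r of log2(FPKM + 1) across the 20 cells was 0.15 (range -0.43 to 0.74), and over all pairs of the 3694 genes present in at least 5 of these cells it was 0.01. These cells come from 1 sample and members of a cell share its library depth. The highest values were Rel with Nfkbiz (0.74), Nfkbia with Tnfaip3 (0.67) and Nfkb1 with Nfkbie (0.67). With each cell left out in turn these ran from 0.69 to 0.78, from 0.62 to 0.75 and from 0.64 to 0.75. Nfkbia, Nfkbiz, Tnfaip3 and Rel had Pearson r of 0.43 to 0.74 with each other, but not all of these held by rank. Spearman rho was 0.73 for Rel with Nfkbiz and 0.60 for Nfkbia with Tnfaip3, but 0.16 for Rel with Tnfaip3, 0.24 for Nfkbiz with Tnfaip3 and 0.29 for Rel with Nfkbia. In cells with both genes, r was -0.09 for Rel with Tnfaip3 (16 cells) and 0.10 for Rel with Nfkbia (18 cells). Zfp36 had its highest r with any member at 0.19 (Nfkb2), and Ier3 at 0.21 (Nfkb1). E12, far below the other cells in Zfp36 (2.99 FPKM), is among these 20 cells. Nfkb2 ran opposite to Nfkbia (-0.43) and Tnfaip3 (-0.40).

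**Figure D3:**
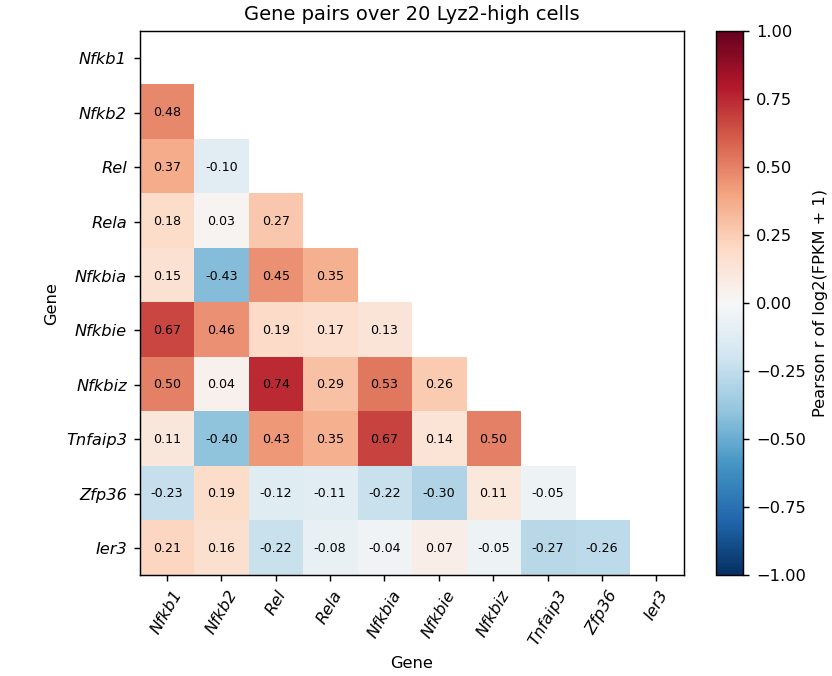
Pearson r of log2(FPKM + 1) for each pair of genes over the 20 Lyz2-high cells, red for positive and blue for negative values. Rel, Nfkbia, Nfkbiz and Tnfaip3 have positive Pearson values with each other, of which Rel with Tnfaip3 is 0.16 by rank, and no value of Zfp36 or Ier3 with another member is above 0.21.

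For the 3 pairs with the highest r, values were lower among cells that held both genes. In the 16 cells that held both, r was 0.43 for Rel with Nfkbiz and 0.41 for Nfkbia with Tnfaip3, and in the 8 cells that held both it was 0.23 for Nfkb1 with Nfkbie. Other pairs had higher r among cells with both, such as Nfkbia with Ier3 (0.57 in 12 cells, -0.04 in all 20) and Nfkbiz with Ier3 (0.50 in 9 cells, -0.05 in all 20). Without the 6 cells with C1qb the median over pairs was 0.03, against 0.01 for all gene pairs in those 14 cells, while Rel with Nfkbiz had 0.80, Nfkbia with Tnfaip3 0.61 and Nfkb1 with Nfkbie 0.53. Over all 20 cells the median was 0.09 without H5. The median over all pairs thus moved with a few cells. These 3 pairs had positive values in each setting, but they were picked for the highest r in these same 20 cells. Their values in parts of those cells are thus no independent check.

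Cells with C1qb, which encodes a chain of the complement component C1q made by interstitial macrophages, held fewer members than those without it, taking C1qb as present at 1 FPKM or more. Of the same marker list, C1qc was in 8 Lyz2-high cells, C1qa and Mrc1 in 6 each, Pf4 in 5, Folr2 in 1 and Lyve1 in no cell. The split rests on C1qb only and names no cell type. The 6 Lyz2-high cells with C1qb held a median of 5.5 members (range 3 to 7) and the 14 without it 8 (range 4 to 10), so the ranges overlapped. Of the 10 members 1 was present in a larger share of the C1qb cells, where 49.6% of all genes were. Nfkbia and Zfp36 were in every cell of both groups, so neither could have a larger share. Nfkbie was present in 0 of 6 and 10 of 14 cells, Nfkb1 in 1 of 6 and 11 of 14, and Rela in 1 of 6 and 10 of 14. Ier3 went the other way, in 5 of 6 and 7 of 14. Nfkbia was present in all cells of both, at medians of 1973 FPKM (1011 to 4779) and 3509 FPKM (721 to 9382). Zfp36 had medians of 666 and 635 FPKM, a smaller gap than that between single cells of either kind. Depth moved with this split, with medians of 2177839 (767318 to 4059833) and 1433691 (521492 to 3526674) expected counts, and its part was not tested. After thinning, the medians were 5 and 8 members. The intervals of all shares are wide at 6 cells, and no test was made. Both the members and this split were chosen with earlier results of these data known.

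**Figure D4:**
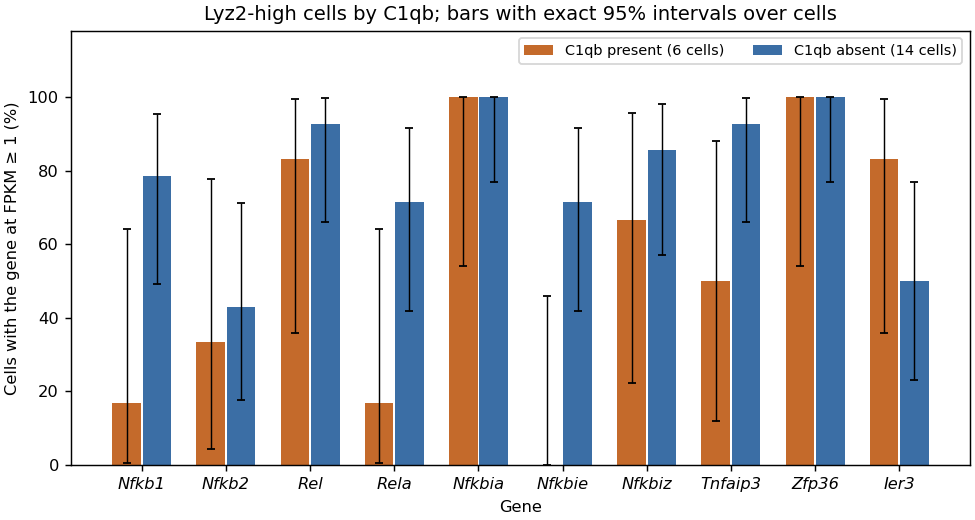
Share of Lyz2-high cells in which each gene was present (bars), for 6 cells with and 14 cells without C1qb, with exact 95% intervals over cells. Nfkb1, Rela and Nfkbie have the widest gaps, and Ier3 is the 1 gene whose C1qb bar is higher.

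The monocyte gene Ly6c2 divided the members less. In the 10 Lyz2-high cells with Ly6c2 and the 10 without it, the median number of members was 8 and 7. All 6 Lyz2-high cells with C1qb were among the 10 without Ly6c2, so the groups of both splits share cells. The rest of those 10, C11, D4, D6 and F10, held 9, 7, 9 and 9 members. Of the 10 members 4 had a larger share in the cells with Ly6c2, against 36.3% of all genes. Rela was present in 8 of 10 and 3 of 10, while Rel was in 9 of 10 of each and Nfkbiz in 8 of 10 of each. Ier3 (6 of 10 of each), Nfkbia and Zfp36 (all cells) were also equal, and equal shares were not counted as larger. Nfkb2 was the only member with a smaller share in the cells with Ly6c2, in 3 of 10 and 5 of 10.

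The genes whose levels were most like each member's were named from all protein-coding genes present in at least 5 Lyz2-high cells, 3 per member. For Nfkbiz they were the chemokine gene Ccl3 (r = 0.80), the nuclear receptor gene Nr4a1 (0.79) and Gadd45b (0.76). For Rel they were the kinase gene Pim1 (0.77), the chemokine gene Cxcl2 (0.75) and Spc24 (0.75), with Nfkbiz the next. For Tnfaip3 they were Ccl3 (0.76), Gngt2 (0.74) and S100a11 (0.71), and for Nfkbia Cxcl10 (0.70), Ccnd3 (0.70) and Foxn2 (0.69). Among 3227 genes, the closest fellow member ranked 4 for Rel, 5 for Nfkbiz, 7 for Nfkbia and Nfkbie, and 8 for Nfkb1 and Tnfaip3. It ranked 737 for Zfp36, 580 for Ier3 and 284 for Rela.

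Of the other members, Nfkb1 was most like the receptor gene Il17ra (0.72), Nfe2l2 (0.71) and Sec61g (0.71), and Nfkbie was most like Tm2d1 (0.74), Ube2s (0.72) and Mdm2 (0.69). Nfkb2 was most like Gsdmd (0.78), Clec4n (0.77) and Csf2rb (0.70), and Rela was most like Capns1 (0.71), Gm7102 (0.71) and Coq10b (0.69). Zfp36 was most like the ribosomal protein gene Rpl30 (0.82), Gabarap (0.68) and Rps24 (0.59). E12 lay far below the other Lyz2-high cells in Zfp36 (2.99 FPKM), and these 3 values were not computed without it. Ier3 was most like Kctd12 (0.65), Saraf (0.62) and Arl6ip4 (0.60). These are the highest of 3227 values for each member, over 20 cells of 1 sample.

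Inflammatory genes known as NF-kappa B targets went with part of the set. Of the 20 genes on that list 6 were present in at least 10 Lyz2-high cells, led by Cxcl2 (17 cells), Il1b (16), Tnf (15) and Ccl4 (14), and Cxcl3, Il23a, Il12b, Nos2, Csf1 and Csf3 were in no cell. The median r of listed genes present in at least 5 cells with the 10 members was 0.21, against 0.03 for all genes with the members, and it was 0.20 in the 14 cells without C1qb. Cxcl2 had r of 0.75 with Nfkbiz and with Rel, 0.60 with Nfkbia and 0.50 with Tnfaip3, but -0.13 with Zfp36 and -0.08 with Ier3. Tnf had r of 0.74 with Nfkbiz, 0.60 with Tnfaip3 and 0.56 with Nfkbia, and 0.00 with Zfp36. Il1b had r of 0.41 to 0.49 with Rel, Rela, Nfkbia, Nfkbiz, Nfkbie and Tnfaip3, which in the 14 cells fell to between 0.07 and 0.25.

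Zfp36 went with some immediate early genes, as did Nfkbiz. Zfp36 had r of 0.53 with Fos and 0.55 with Junb, but 0.11 with Klf6 and with Jund. In the 14 cells without C1qb the values with Fos and Junb were 0.49 and 0.52. E12, with 2.99 FPKM of Zfp36, is in both sets of cells, and these values were not computed without it. Nfkbiz had r of 0.47 with Fos and 0.45 with Junb in the 20 cells and 0.87 and 0.72 in the 14. Rel had 0.15 and 0.12 in the 20 cells and 0.65 and 0.58 in the 14, and Nfkbia had 0.27 and 0.19, then 0.43 and 0.27. In the 14 cells Nfkbiz and Rel thus had higher values with Fos and Junb than Zfp36 had. All 15 immediate early and stress genes were found in some cell and 9 in at least 10 Lyz2-high cells, led by Klf6 (20), Fos, Junb and Jund (17 each). Their median r with the members was 0.05 in the 20 cells and 0.12 in the 14. Such genes respond to tissue dissociation and sorting, as several of the members do, and the part of handling was not tested.

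The other genes of the pathway are given as counts beside the 13.2% of all genes that were present in at least 10 Lyz2-high cells, and differences between the lists were not tested. Of 22 kinases, adaptors and receptors 4 were present in at least 10 Lyz2-high cells, led by the inhibitor kinase gene Ikbkb (17 cells), Irak2 (11), Tab2 and Tnfrsf1b (10 each), and Tab3 was in no cell. Chuk, which encodes the partner kinase, was present in 5 of 20, and Ikbkg, which encodes their scaffold, in 2 of 20. Of 21 other feedback and decay genes 9 were present in at least 10 Lyz2-high cells, led by the phosphatase gene Dusp1 (20, median 753 FPKM), Itch and Birc3 (19 each) and Zfp36l2 (16). Itch, Birc3 and the survival gene Cflar were also in all 11 other cells. Of 19 survival and surface targets 13 were present in at least 10, led by Cd44 (19), Cflar and Tlr2 (18 each) and Ccrl2 (17). Of the remaining inhibitor genes Nfkbib was present in 12 of 20 cells, Bcl3 in 9 and Nfkbid in 8. The median r with the members was 0.20 for Relb and these 3 genes and 0.18 for survival and surface targets. It was 0.14 for upstream genes and 0.04 for other feedback genes, against 0.03 for all genes. In the 14 Lyz2-high cells without C1qb the 4 medians were, in the same order, 0.11, 0.13, 0.12 and 0.04, against 0.02 for all genes.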

How the data were processed

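Polyadenylated RNA of single cells was amplified with a SMARTer kit and made into Nextera XT libraries, per the labels' protocols, and such libraries do not mark strand. CASAVA 1.8, Trimmomatic and RSEM with GRCm38 are named in the submitters' processing notes; no source used here gives settings or an annotation release. The authors deposited RSEM expected counts (estimated counts per gene) and FPKM values, which are scaled to transcript length and depth. No molecular identifiers are named, so amplified copies count as reads. Of 75 count columns 31 matched sample titles and 44 were not used. Symbols were found for 46488 of 47069 identifiers, and the rest held 0.274% of counts. No 2 libraries were identical.

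A gene was present at FPKM 1 or more. Shares have exact Clopper-Pearson 95% intervals, and 0 cells allow a share of 3 over the number of cells; both cover counting error over cells only. Co-detection was set beside the product of both shares, over genes present in at least 3 and not all cells. Correlations used log2(FPKM + 1). Expected counts were rounded before thinning. The scripts were tested on simulated counts. The members and lists were chosen with earlier results of these data known, and so was the C1qb split. Named genes are the members, Relb, the sort genes and the 3 genes most like each member. Of each list they are the 4 genes in most Lyz2-high cells and those in no cell. The interstitial macrophage and neutrophil lists are given in full. Chuk, Ikbkg, Bcl3, Nfkbid, Nfkbib and Psd were singled out with their values in view, like the cells with extreme values. Python 3.11.15, numpy 2.4.6, pandas 2.3.3, scipy 1.17.1 and matplotlib 3.10.9 were used. Alternatives were other minimums (FPKM 5 and 50, counts 1 and 10), thinning, other Lyz2 minimums (100 and 10000 FPKM), libraries with at least 80% coding counts or 500000 counts, pseudocounts 0.1 and 10, counts scaled to coding counts, Spearman correlation and a filter on members in fewer than 5 cells.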

Additional observations from a re-analysis of the deposited data

How the results depend on the processing

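The median number of members per Lyz2-high cell stayed at 6 to 8 and that over all cells at 4 to 7 under the alternatives tried, each within 1 SD over cells of the reported 7 and 6. The share of member pairs found together above independence ran from 46.4 to 95.6%. It was highest (43 of 45 pairs) with Lyz2 at 100 FPKM or more, which takes in 5 further cells. It was lowest in the 14 Lyz2-high cells without C1qb, a setting chosen after seeing the data. The pairs counted differed, with 19 of 28 in the reported setting. They were 20 of 36 (55.6%) at FPKM 5, 24 of 36 (66.7%) at FPKM 50 and 21 of 36 (58.3%) at 10 counts. For all gene pairs, this share and the median r were computed only for the reported setting and those 14 cells. The median r over pairs ran from 0.03 in those 14 cells to 0.29 with Lyz2 at 100 FPKM or more, and from 0.09 without H5 to 0.23 without C8 when each cell was left out in turn. Members in at least 50% of Lyz2-high cells numbered 6 to 9. Of the values of single members 10 moved by more than their error. Of these, 9 were shares of all cells with a member, such as Rel at 90.5% and Tnfaip3 at 81.0% in libraries with at least 80% coding counts, where each was 64.5% over 31 cells. The tenth was the median log2 level of Rel, 6.58 from FPKM and 9.55 from counts scaled to coding counts, which are not per length. No paired analysis was possible because all cells form 1 group. With 20 cells, counting error alone gives presence in 10 cells an interval of 27.2 to 72.8%.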

Other observations

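Some of the highest values of these genes lay outside the Lyz2-high cells. E5, with 61.6% of counts on protein-coding genes, had the highest Rela level of all 31 cells at 1070 FPKM (883 expected counts), together with Nfkbiz at 517 FPKM (579 expected counts) and Rel at 68.9 FPKM. D10, with 43.6%, held Nfkbia at 3299 FPKM (2125 expected counts) and no Rel family member. F2, with 48.9% and the most counts of the 11 other cells, held 7 members, of which Tnfaip3 was at 417 FPKM (2746 expected counts) and Nfkb1, Nfkb2 and Rela were at 1.11 to 3.75 FPKM.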
